A study of Mus musculus with 12 samples.

Results

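Lung expression of the neutrophil-attracting CXC chemokines Cxcl1, Cxcl2, Cxcl3, Cxcl5 and Cxcl15 and of their receptor gene Cxcr2 was followed across ventilator-induced lung injury (VILI) in Gadd45a knockout and wild type mice. The 6 genes were chosen by family: the chemokines carry the glutamate, leucine and arginine motif (ELR) ahead of the CXC cysteines, and Cxcr2 is the receptor that reads such ligands. They had 9 probe sets, of 18193 genes and 45037 probe sets in all. Single-colour Affymetrix arrays measured total lung RNA of mice aged 8 to 12 weeks, with 1 array per mouse and 3 mice in each of 4 groups. The groups were GADD45-/- mice with VILI, wild type mice with VILI, GADD45-/- mice labelled SB and wild type mice labelled SB. Ventilation in the VILI groups lasted 4 hours, with 30 ml/kg tidal volume and 65 breaths each minute. SB is not explained by the labels, and wild type SB is the control group of the stated design. The knockout is written GADD45-/- in the titles, and the series title names Gadd45a. A description field that calls every animal a control was not used. No source used here states strain, sex, hybridisation batch or the extent of the deletion. Because the design counts 3 mice per group, each array stands for its own animal.

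ELR-positive CXC chemokines are secreted proteins that draw neutrophils out of the blood toward injured tissue. Neutrophils sense them through Cxcr2, a receptor coupled to inhibitory G proteins, which triggers integrin activation, adhesion and migration. In mouse lung, Cxcl1 and Cxcl2 are made by macrophages, epithelium and endothelium after inflammatory signals, Cxcl5 is made mainly by alveolar epithelium, and Cxcl15, also called lungkine, is made by airway and alveolar epithelium without injury. Interleukin 1, tumour necrosis factor and interleukin 17 induce the inducible members, largely through NF-kB binding at their promoters.

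In RefSeq gene order on chromosome 5, 7 consecutive protein-coding genes were Cxcl5, Ppbp, Pf4, Cxcl3, Cxcl15, Cxcl1 and Cxcl2, while Cxcr2 lies on chromosome 1. RefSeq promoter windows of assembly GRCm38.p6, from 250 bases before to 50 bases after the annotated start, matched 5 of the 6 genes: Cxcl1, Cxcl2, Cxcl3, Cxcl15 and Cxcr2. The last 120 bases before the start are shown for 4 chemokines because 3 of them share letters that the window of Cxcl15 lacks. Capitals mark GGGAATTTCCC, the longest run found in all 3 stretches (11 bases), which holds a kappa B sequence of the kind NF-kB binds, and ATAAAA, letters like those of the core promoter box bound by the general transcription machinery.

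Cxcl1 (chr5:90891125-90891244, plus strand): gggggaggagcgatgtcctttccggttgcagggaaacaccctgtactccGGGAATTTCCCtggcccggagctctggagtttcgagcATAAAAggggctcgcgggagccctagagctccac
Cxcl2 (chr5:90903779-90903898, plus strand): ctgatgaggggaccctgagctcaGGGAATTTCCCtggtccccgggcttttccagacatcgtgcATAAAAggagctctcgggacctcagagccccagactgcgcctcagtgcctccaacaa
Cxcl3 (chr5:90785981-90786100, plus strand): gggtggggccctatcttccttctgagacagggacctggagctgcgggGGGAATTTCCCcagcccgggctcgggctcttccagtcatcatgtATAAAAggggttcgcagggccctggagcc
Cxcl15 (chr5:90794414-90794533, plus strand): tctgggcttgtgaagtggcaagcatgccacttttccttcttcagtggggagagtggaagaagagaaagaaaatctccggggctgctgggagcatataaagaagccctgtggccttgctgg

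The shared run lay 71 to 61 bases before the start of Cxcl1, 97 to 87 bases before that of Cxcl2 and 73 to 63 bases before that of Cxcl3. Searched on both strands, it occurred in 14 of the 32851 windows of all genes, or 0.0426%; its presence in these 3 genes chose it and is a description. The letters ATAAAA, searched on the sense strand, lay 34 to 29 bases before the start of Cxcl1, 57 to 52 before that of Cxcl2 and 29 to 24 before that of Cxcl3, and occurred in 11.1% of windows. Neither exact run was found in the windows of Cxcl15 or Cxcr2. The printed Cxcl15 stretch does hold TATAAA, letters also like those of the core promoter box, which the exact search for ATAAAA did not count. The AP-1 letters, TGA and TCA with any 1 base between (7.81% of windows), and the C/EBP letters TTGCNNAA (10.8%), searched on both strands, were in none of the 5 windows. The motifs do not overlap one another in these windows, and a match describes letters only.

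**Figure D1:**
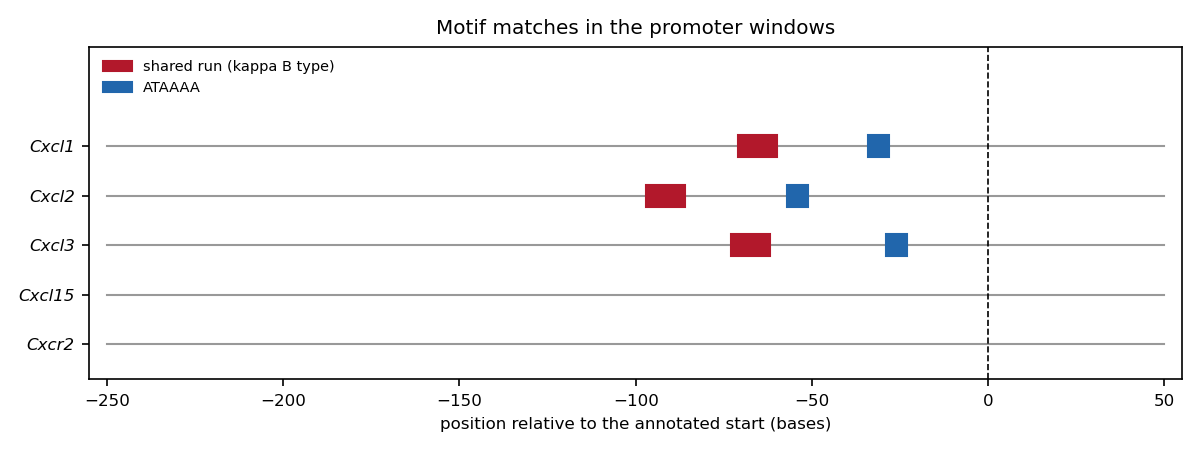
Motif matches in the promoter windows of 5 genes, as distance in bases from the annotated start (dashed line), with the shared kappa B type run in red and the letters ATAAAA in blue. Cxcl1, Cxcl2 and Cxcl3 each hold 1 match of both kinds, and these exact letters are in neither the Cxcl15 nor the Cxcr2 window.

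Defining lung genes were high on all 12 arrays. The surfactant gene Sftpc lay at 15.1 to 15.5, the club cell gene Scgb1a1 at 15.5 to 15.9, the type I cell gene Ager at 14.1 to 14.9 and the endothelial gene Pecam1 at 11.9 to 12.5, on the log2 scale used for every level below. Gadd45a lay at 4.58 to 6.15 on the 6 knockout arrays, against 8.62 to 10.3 on the 6 wild type arrays; where its probe set lies relative to the deletion was not tested. Array medians over the 45037 probe sets used were 4.36 to 4.58, and values below about this height hold little signal. Knockout VILI replicate 3 and knockout SB replicate 3 stood apart: the mean of 6 B cell markers was 10.2 on that VILI array and 9.94 on that SB array, against 5.68 to 7.49 on the other 10 arrays. The called knockout VILI changes of the 6 genes and the counts of called genes in several lists are given below without both arrays. Without them, 4 of the 6 genes still passed for VILI against SB in wild type lungs and 4 in the average over genotypes.

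Cxcl1 encodes the chief early neutrophil chemokine of mice, also known as KC. It read 7.81, 8.36 and 7.50 in the knockout VILI lungs and 5.77, 5.49 and 6.27 in the wild type VILI lungs. It read 3.01, 4.24 and 4.58 in the knockout SB lungs and 4.25, 4.38 and 4.19 in the wild type SB lungs. Every VILI array stood above every SB array, and every knockout VILI array stood above every wild type VILI array, whereas the SB groups overlapped. VILI raised Cxcl1 by 3.94 ± 0.37 in knockout lungs (log2 change ± SE, 15.4-fold, adjusted p = 0.00155) and by 1.57 ± 0.37 in wild type lungs (2.96-fold, adjusted p = 0.0492). Tests were limma's, two-sided, with p-values adjusted by Benjamini-Hochberg over 10996 genes and a threshold of 0.05. After VILI, knockout exceeded wild type by 2.04 ± 0.37, or 4.13-fold (95% interval 1.24 to 2.85, adjusted p = 0.0817), which missed the threshold. Under SB, the knockout difference was -0.33 ± 0.37 (adjusted p = 0.796).

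A second Cxcl1 probe set, with the suffix _s_at, lay lower and also had all knockout VILI arrays above all wild type VILI arrays, whereas its wild type VILI and knockout SB arrays overlapped. It read 5.86, 6.11 and 5.90 in knockout VILI lungs, against 4.18, 3.93 and 4.96 in wild type VILI lungs. The VILI change was 2.42 in knockout (adjusted p = 0.0213 over all probe sets with no filter) and 0.86 in wild type (adjusted p = 0.239), and knockout exceeded wild type after VILI by 1.60 (adjusted p = 0.223). The third, with the suffix _x_at, stayed at 1.63 to 2.06 on all arrays, near the lower end of the scale. By the manufacturer's naming, these suffixes mark probes that can match more than 1 transcript; cross-hybridisation among the related Cxcl1, Cxcl2 and Cxcl3 was not tested.

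Cxcl2, also known as MIP-2, is a second ligand of Cxcr2. It read 6.57, 7.22 and 8.02 in the knockout VILI lungs and 5.25, 6.47 and 5.09 in the wild type VILI lungs. It read 2.81, 4.45 and 2.62 in the knockout SB lungs and 2.08, 3.12 and 2.99 in the wild type SB lungs. All VILI arrays lay above all SB arrays, and the knockout VILI arrays lay above the wild type VILI arrays by a narrow margin, 6.57 against 6.47 at the closest. VILI raised Cxcl2 by 3.98 ± 0.55 in knockout lungs (15.7-fold, adjusted p = 0.00595) and by 2.87 ± 0.55 in wild type lungs (7.32-fold, adjusted p = 0.0260). The knockout excess after VILI was 1.67 ± 0.55 (95% interval 0.46 to 2.87, adjusted p = 0.538). The SB difference was 0.56 ± 0.55 (adjusted p = 0.760).

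Cxcl5, also known as LIX, carried the largest VILI change of the 6 genes in knockout lungs. It read 7.92, 9.72 and 9.21 in the knockout VILI lungs and 6.36, 5.93 and 7.11 in the wild type VILI lungs. It read 3.50, 3.48 and 6.20 in the knockout SB lungs and 3.53, 3.62 and 3.70 in the wild type SB lungs. One knockout SB array, replicate 3, fell within the wild type VILI range, so the VILI and SB arrays overlapped across genotypes though not within either one. VILI raised Cxcl5 by 4.55 ± 0.67 in knockout lungs (23.5-fold, adjusted p = 0.00788) and by 2.85 ± 0.67 in wild type lungs (7.19-fold, adjusted p = 0.0490). The knockout excess after VILI was 2.49 ± 0.67 (5.60-fold, 95% interval 1.02 to 3.95, adjusted p = 0.347). The SB difference of 0.78 ± 0.67 (adjusted p = 0.720) became -0.13 without both knockout arrays numbered 3. The knockout VILI change of Cxcl5 was 5.46 (adjusted p = 0.00155) without knockout SB replicate 3 alone.

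Cxcl3 is a close relative of Cxcl1 and Cxcl2 whose probe set failed the low-value filter, since only 2 of 12 arrays, both knockout VILI, exceeded the array median. It read 4.30, 5.89 and 4.84 in the knockout VILI lungs and 3.92, 4.08 and 4.14 in the wild type VILI lungs. It read 3.61, 3.80 and 3.67 in the knockout SB lungs and 3.72, 3.86 and 3.89 in the wild type SB lungs. The group means were ordered as for Cxcl1, at levels mostly under the array median, and only the SB groups overlapped. In a fit over all 18193 genes with no filter, the VILI change was 1.32 ± 0.31 in knockout (adjusted p = 0.0599) and 0.22 ± 0.31 in wild type (adjusted p = 0.792), and the knockout excess after VILI was 0.96 ± 0.31 (adjusted p = 0.644). None of these passed.

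Cxcl15, the constitutive lung chemokine, sat near the top of the scale on every array and did not follow the inducible members. It read 14.37, 14.24 and 13.97 in the knockout VILI lungs and 14.49, 14.52 and 14.38 in the wild type VILI lungs. It read 14.38, 14.63 and 14.09 in the knockout SB lungs and 14.44, 14.52 and 14.38 in the wild type SB lungs. The VILI groups overlapped the SB groups in both genotypes, and the knockout arrays of replicate 3 were the lowest. The VILI change was -0.18 ± 0.13 in knockout lungs (95% interval -0.46 to 0.11, adjusted p = 0.454) and 0.02 ± 0.13 in wild type lungs (95% interval -0.27 to 0.30, adjusted p = 0.961). The knockout difference after VILI was -0.27 ± 0.13 (adjusted p = 0.736). Every knockout VILI array lay below every wild type VILI array, 14.37 against 14.38 at the closest, where 7.36% of the 18193 genes did. The array maximum was 15.5 to 15.9, and whether values near it are compressed was not tested. The second Cxcl15 probe set gave VILI changes of -0.06 in knockout and 0.02 in wild type.

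Cxcr2 encodes the receptor, carried in blood mainly by neutrophils. It read 8.16, 9.88 and 8.50 in the knockout VILI lungs and 8.52, 9.07 and 7.08 in the wild type VILI lungs. It read 6.05, 5.57 and 5.42 in the knockout SB lungs and 6.01, 5.41 and 5.43 in the wild type SB lungs. All VILI arrays lay above all SB arrays, while the genotypes overlapped under both treatments. VILI raised Cxcr2 by 3.16 ± 0.51 in knockout lungs (8.96-fold, adjusted p = 0.0108) and by 2.61 ± 0.51 in wild type lungs (6.09-fold, adjusted p = 0.0290). The knockout difference after VILI was 0.62 ± 0.51 (95% interval -0.50 to 1.74, adjusted p = 0.806). Without both knockout arrays numbered 3 the knockout VILI call of Cxcr2 was lost (3.21, adjusted p = 0.0563), and those of Cxcl1 (4.46, adjusted p = 0.00811), Cxcl2 (3.27, adjusted p = 0.0471) and Cxcl5 (5.33, adjusted p = 0.00811) held.

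**Figure D2:**
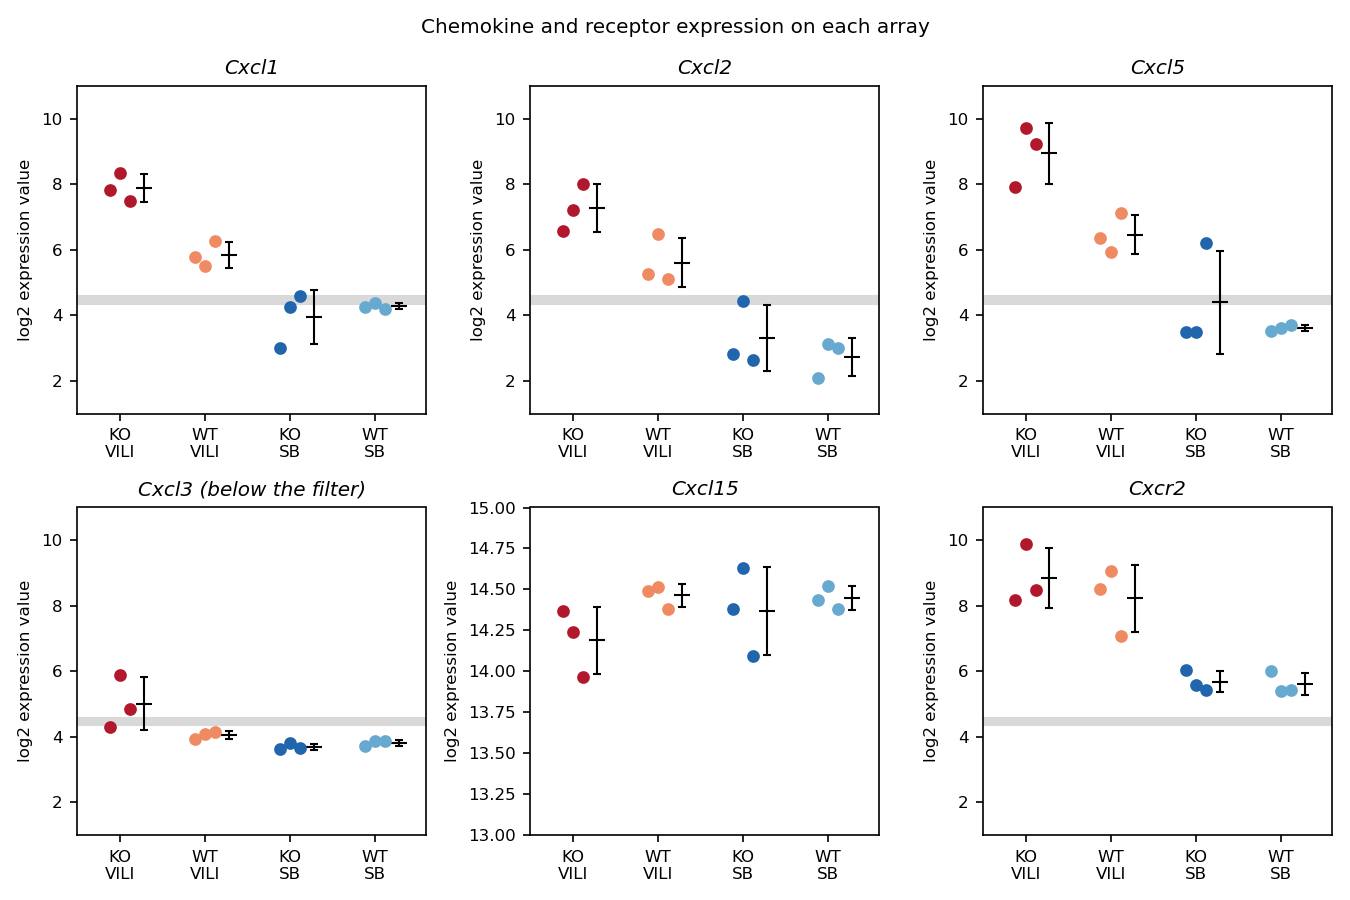
Log2 expression value of each of the 6 genes on every array (points, in replicate order within a group), with the mean and SD of each group of 3, and with the range of array medians as a grey band. Cxcl1, Cxcl2 and Cxcl5 are highest on the knockout VILI arrays, Cxcr2 is high on both VILI groups, and Cxcl15 has its own axis and differs little.

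Of the 6 genes, 4 passed the threshold upward in knockout lungs, where 2.76% of the 10996 genes tested did, and 4 in wild type lungs, where 1.36% did: Cxcl1, Cxcl2, Cxcl5 and Cxcr2. Averaged over genotypes the same 4 rose, where 8.42% of genes did, by 2.76 ± 0.26 (Cxcl1), 3.42 ± 0.39 (Cxcl2), 3.70 ± 0.47 (Cxcl5) and 2.89 ± 0.36 (Cxcr2). Cxcl1, Cxcl2 and Cxcl5 passed the filter mostly through their VILI arrays, with 6 VILI arrays and at most 2 SB arrays above the median, so that such genes had to differ to be tested. With no filter, 4 of 6 passed in knockout (1.12% of 18193 genes), 0 of 6 in wild type (0.308%) and 4 of 6 in the average (5.75%). In wild type the unfiltered adjusted p was 0.0986 for Cxcl1, 0.0634 for Cxcl2, 0.104 for Cxcl5 and 0.0663 for Cxcr2, and these 4 of the 6 had an unadjusted p under 0.05, as did 15.4% of genes. Within each genotype, 5 of the 6 had all VILI arrays above all SB arrays, all but Cxcl15, where 24.9% of the 18193 genes in knockout and 7.89% in wild type did. Over both genotypes 4 did, where 2.7% of genes did, Cxcl5 being the further exception. The wild type calls also rested on single arrays: 0 genes passed without wild type VILI replicate 1, 0 without replicate 2 and 1 without replicate 3, 1 without wild type SB replicate 1, 1 without replicate 2 and 0 without replicate 3, and 2 without knockout VILI replicate 3. The knockout count stayed at 4 with any 1 array left out, and fell to 1, Cxcl1, when only the 6 knockout arrays were fitted.

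Between the genotypes after VILI, 0 of the 6 genes passed in the 12-array fit, where 0.0455% of genes passed upward. With no filter, 4 of the 6 had an unadjusted p under 0.05, Cxcl1, Cxcl2, Cxcl3 and Cxcl5, as did 5.11% of genes in either direction. For the same 4 genes, all knockout VILI arrays lay above all wild type VILI arrays, against 4.39% of the 18193 genes. Between the genotypes under SB, 0 of the 6 passed (0.0455% of genes passed upward and 0.0637% downward). None was separated in either direction, where 2.44% of the 18193 genes were separated upward and 34.2% downward. Among the 10996 genes tested, 3.76% were separated upward and 11.5% downward. The knockout SB arrays are also the baseline of the knockout VILI changes, and the cause of their many low values was not tested. The interaction, in which the wild type VILI response is subtracted from the knockout one, was 2.38 ± 0.52 for Cxcl1 (unadjusted p = 0.000751), 1.10 ± 0.78 for Cxcl2, 1.71 ± 0.94 for Cxcl5 and 0.56 ± 0.72 for Cxcr2, each with an adjusted p of 0.9999. It called 0 of 10996 genes (0%), while 288 (2.62%) had an unadjusted p under 0.05. The Cxcl1 genotype difference after VILI passed under 3 of 24 alternatives: with values below the array median raised to it (adjusted p = 0.00212), with array weights (adjusted p = 0.00730) and without knockout SB replicate 1 (adjusted p = 0.0123). With values raised and without that SB array, the change stayed at 2.04 and the SE was 0.23 and 0.25. It did not pass under the rest, among them no filter (adjusted p = 0.282) and leaving out wild type VILI replicate 2 (adjusted p = 0.411).

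**Figure D3:**
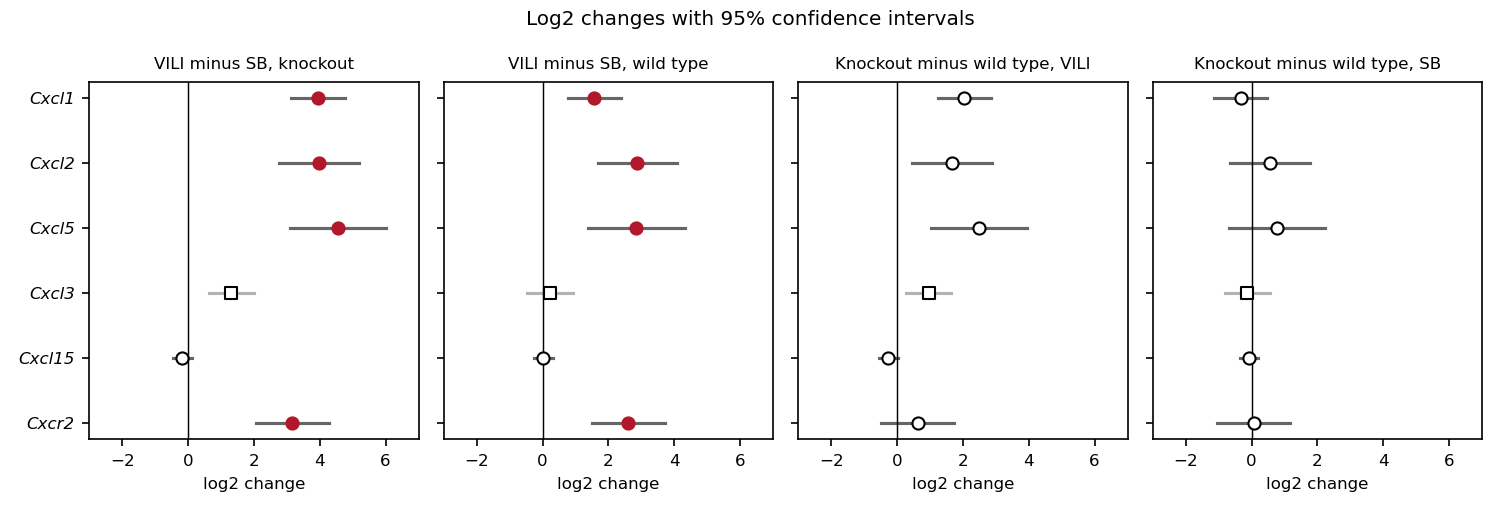
Log2 change of each gene with its 95% confidence interval, for VILI minus SB in each genotype and for knockout minus wild type in each treatment. Filled points passed an adjusted p of 0.05, and squares (Cxcl3) come from the fit with no filter; Cxcl1, Cxcl2 and Cxcl5 lie between 1.67 and 2.49 in the knockout comparison after VILI and are unfilled.

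The genes that tracked the members most closely over the 12 arrays are given as a description, by Pearson correlation, since the 4 groups set most of the pattern. For Cxcl1 they were Ppp1r3d, a glycogen-targeting phosphatase subunit (0.945), Stat3, the transcription factor below Il6 (0.933), and Tars, a tRNA synthetase (0.924). For Cxcl2 they were Dcaf13 (0.970), Gnl3 (0.944) and Tnfaip2 (0.939), and for Cxcl5 the kinase gene Pim1 (0.966), Sting1 (0.958) and Btg1 (0.952). Cxcr2 was closest to the neutrophil collagenase gene Mmp8 (0.987), to Mrps22 (0.981) and to the chemokine receptor gene Ccr1 (0.981). Cxcl15 was closest to Fermt2 (0.949), Mtfr1l (0.943) and Lrpap1 (0.942).

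Markers of neutrophils rose with VILI, as the receptor did. The mean of 14 neutrophil markers was 9.47 ± 0.71 in knockout VILI lungs, 9.08 ± 0.36 in wild type VILI lungs, 7.07 ± 0.25 in knockout SB lungs and 6.60 ± 0.17 in wild type SB lungs (SD, n = 3 each). The arrays ranged over 8.88 to 10.3 in knockout VILI and 8.73 to 9.45 in wild type VILI, which overlapped. They ranged over 6.81 to 7.29 in knockout SB and 6.42 to 6.76 in wild type SB, which did not overlap, whereas the SB arrays of Cxcr2 did. Of the 14, 9 rose with VILI in knockout (2.76% of all genes did) and 9 in wild type (1.36%), and 0 fell. Averaged over genotypes 12 rose (8.42% of all genes did), led by Mmp8 (4.90), Clec4e (4.45), Il1r2 (3.99) and Clec4d (3.35). Between the genotypes after VILI 0 passed (0.0455% of genes passed upward), with a median change of 0.26. Without both knockout arrays numbered 3, 5 rose in knockout and 10 in wild type. The granule genes Camp, Elane and Mpo failed the filter, and with no filter their VILI changes in knockout were -0.159, 0.017 and 0.015. In wild type these were 0.007, 0.006 and 0.002, and none passed. Mmp8 read 2.85 to 4.67 on the SB arrays and passed the filter mostly through VILI arrays. A marker that low under SB had to differ to be tested. In whole lung RNA, more neutrophils and more RNA per neutrophil cannot be told apart. Cxcr2 minus that marker mean was -0.63 ± 0.21 in knockout VILI lungs and -0.85 ± 0.69 in wild type VILI lungs. It was -1.39 ± 0.16 in knockout SB lungs and -0.98 ± 0.24 in wild type SB lungs, which did not overlap, -1.24 against -1.23 at the closest.

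Over the VILI arrays of both genotypes, the mean of the called ligands Cxcl1, Cxcl2 and Cxcl5 and the neutrophil marker mean gave different orders. Within knockout VILI the order was the same, falling from replicate 2 to 3 to 1 in both means. Within wild type VILI the ligand mean fell from replicate 3 to 2 to 1, and the marker mean from 2 to 1 to 3. Each of these ligands already had all knockout VILI arrays above all wild type VILI arrays, so their mean had to as well. Cxcl3 and Cxcl15 were left out of the mean, and Cxcl15 lay lower on the knockout VILI arrays. The mean of Cxcl1, Cxcl2 and Cxcl5 was 7.43, 8.43 and 8.25 in the knockout VILI lungs, against 5.79, 5.96 and 6.16 in the wild type VILI lungs. Wild type VILI replicates 1 and 2 had marker means of 9.05 and 9.45, above the 8.88 of knockout VILI replicate 1. In the ligand mean they lay more than 1 log2 unit below that array. The part of neutrophils in the ligand levels was not tested.

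**Figure D4:**
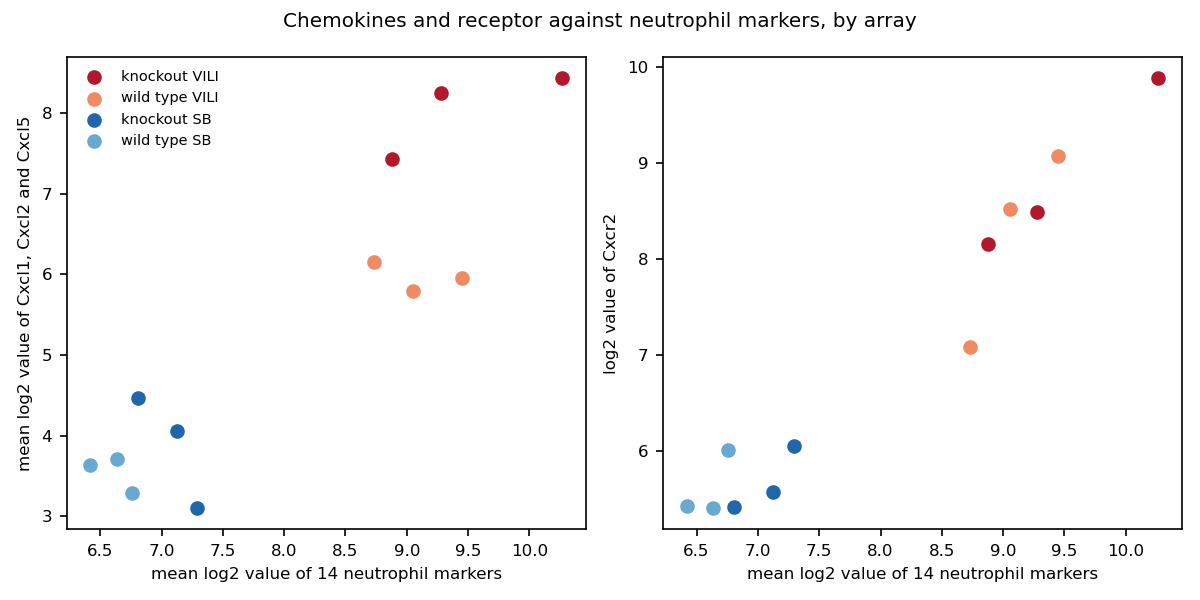
Each point is 1 array; the x axis is the mean log2 value of 14 neutrophil markers, and the y axis is the mean log2 value of Cxcl1, Cxcl2 and Cxcl5 (left) or the log2 value of Cxcr2 (right). On the left the knockout VILI arrays lie above the wild type VILI arrays, 1 of them at a marker mean of 10.3 that no wild type array reaches, and on the right the VILI genotypes are interleaved.

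Upstream of the chemokines, 9 of 16 cytokines and cytokine receptors known to induce them were tested. Averaged over genotypes 5 rose and 0 fell, where 17.8% of all genes passed in either direction: Il6, Il1b, Il17ra, Tnfrsf1b and Il1r1. In knockout lungs these 5 rose (4.47% of genes passed in either direction), and in wild type lungs Il1b and Il17ra did (2.64%). The median change of the 9 was 0.57 in knockout and 0.45 in wild type, against 0.00 and -0.05 over all genes. Without both knockout arrays numbered 3, 5 rose in the average, 1 in knockout (Il17ra) and 3 in wild type. Il1b, which encodes interleukin 1 beta, averaged 9.94 ± 0.72 in knockout VILI lungs, 8.94 ± 0.65 in wild type VILI lungs, 7.32 ± 0.42 in knockout SB lungs and 6.26 ± 0.74 in wild type SB lungs, with VILI changes of 2.63 in knockout (adjusted p = 0.0131) and 2.69 in wild type (adjusted p = 0.0183). Il6 read 5.84, 7.88 and 7.45 in knockout VILI lungs and 3.71, 4.44 and 7.14 in wild type VILI lungs. It read 2.18, 2.33 and 2.11 in knockout SB lungs and 2.16, 3.61 and 2.21 in wild type SB lungs. All these SB values lay under the array medians, so Il6 passed the filter only through VILI arrays and had to differ to be tested. Its VILI change of 4.86 in knockout passed (adjusted p = 0.0108), and that of 2.43 in wild type did not (adjusted p = 0.113). Il17ra, a subunit of the interleukin 17 receptor, changed by 1.63 in knockout (adjusted p = 0.00349) and 1.04 in wild type (adjusted p = 0.0238).

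Other inducers lay below the filter. Tnf had group means of 2.28 to 2.61, Il17a of 2.71 to 2.98 and Csf3, which encodes the granulocyte growth factor G-CSF, of 2.30 to 2.34. None of their VILI changes passed in the fit with no filter. Single knockout VILI arrays were higher, at 3.21 for Tnf and 3.48 for Il17a. Il1a and Csf2 also failed the filter.

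**Figure D5:**
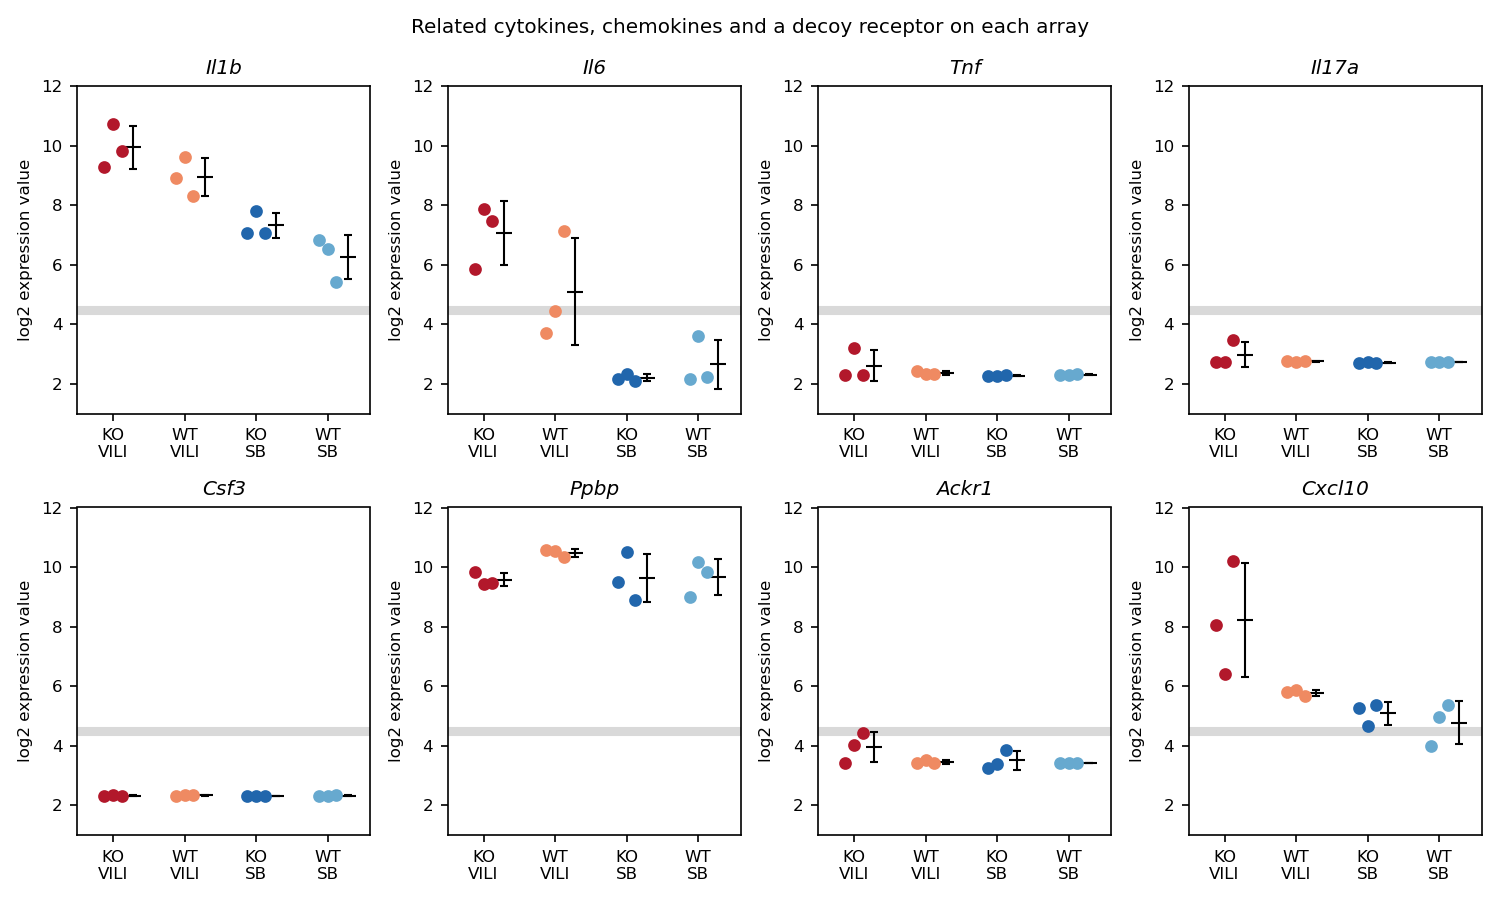
Log2 expression value of 8 related genes on every array (points, in replicate order within a group) with the mean and SD of each group of 3; the grey band is the range of array medians. Il1b, Il6 and Cxcl10 are higher on the VILI arrays, Tnf, Il17a and Csf3 lie below the band, and Ppbp has no such pattern.

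Of 20 transcription factors and mRNA stability regulators of these chemokines, 19 were tested. Averaged over genotypes 6 rose and 1 fell, where 17.8% of all genes passed in either direction: Egr1, Bcl3, Nfkbiz, Zc3h12a, Jun and Rela rose, and Nfkbia, which encodes the NF-kB inhibitor, fell by 0.17 (adjusted p = 0.0350). In knockout lungs Egr1 (2.81), Bcl3 (2.24) and Nfkbiz (1.24) rose, the last of them encoding a nuclear cofactor of NF-kB (4.47% of all genes passed). In wild type lungs Jun (0.74) rose, 1 of 19 where 2.64% of all genes passed. Their adjusted p in wild type was 0.0671 for Egr1, 0.0517 for Bcl3 and 0.0517 for Nfkbiz, and the genotype difference of none passed after VILI. The median change over the 19 was 0.41 in the average, against -0.03 over all genes. Without both knockout arrays numbered 3, 8 rose in the average, 0 in knockout and 2 in wild type.

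Below the receptor, 17 of 21 signalling genes were tested, and averaged over genotypes 4 rose and 3 fell, where 17.8% of all genes passed. The Src-family kinase gene Fgr rose by 1.79 (adjusted p = 0.00204) and the PI3K regulator gene Pik3r5 by 1.31 (adjusted p = 0.00479). Arrb1, which encodes the arrestin that uncouples such receptors, fell by 0.73 (adjusted p = 0.00245). Of 15 genes of neutrophil adhesion and crossing of the vessel wall, 13 were tested, and 3 rose and 2 fell in the average, against the same 17.8%. The integrin gene Itgam rose by 1.83 (adjusted p = 0.00270), the selectin ligand gene Selplg by 0.85 (adjusted p = 0.00400) and the selectin gene Selp by 0.96 (adjusted p = 0.0327), and the endothelial genes Pecam1 and Icam2 fell by 0.31 and 0.42. Of 9 endothelium markers, Pecam1 among them, 5 fell and 0 rose in the average, where 9.39% of all genes passed downward. The falls were led by Sox17 (-1.16), Eng (-0.77), Tek (-0.67) and Kdr (-0.62). The marker mean stood at 10.9 in the knockout and 11.1 in the wild type lungs after VILI, against 11.4 in the knockout and 11.6 in the wild type lungs under SB, and the part of endothelial cells in these falls was not tested. Without both knockout arrays numbered 3, 8 signalling genes rose and 3 fell, and 2 adhesion genes rose and 2 fell, the rise of Selp being lost (adjusted p = 0.105). Fgr, Itgam and Selplg are leukocyte genes, and the neutrophil marker mean moved with them as given above; its part in their changes was not tested.

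In a list of another ELR chemokine and of chemokine receptors and decoys, 4 of 6 genes were tested. In either genotype 0 passed, where 4.47% of all genes in knockout and 2.64% in wild type did, so 0 of 4 is near those shares. Ppbp, the platelet ELR chemokine gene between Cxcl5 and Pf4, averaged 9.58 ± 0.22 in knockout VILI lungs, 10.5 ± 0.14 in wild type VILI lungs, 9.64 ± 0.81 in knockout SB lungs and 9.66 ± 0.61 in wild type SB lungs. Its VILI change was -0.06 in knockout (adjusted p = 0.945) and 0.82 in wild type (adjusted p = 0.230). Ackr4, a scavenging receptor gene, fell by 0.57 in the average (adjusted p = 0.0467), 1 of 4 tested where 17.8% of all genes passed. That call was lost without both knockout arrays numbered 3 (adjusted p = 0.0703). Of the 12 other CXC chemokines and receptors, 9 were tested, and in the average Cxcl10, an interferon-induced T cell chemokine, rose and Cxcl12, the stromal ligand of Cxcr4, fell by 0.62 (adjusted p = 0.0282); 2 of 9 is near the 17.8% of all genes that passed. Cxcl10 rose in knockout lungs (3.12, adjusted p = 0.0341), with 8.06, 6.40 and 10.2 in knockout VILI lungs against 5.27, 4.65 and 5.35 in knockout SB lungs. Without both knockout arrays numbered 3 its change was 2.27 and did not pass (adjusted p = 0.0764).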

How the data were processed

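Expression was measured on 12 single-colour arrays, 3 per group, grouped by sample title. The authors deposited log2 expression values, already normalized; per the submitters' processing notes MAS5 and GCRMA were used, with no version, role or order given, and detection calls were not used here. Depth does not apply to arrays, and their number limits the precision.

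From these values, 64 control probe sets were left out and probe sets above the array median on 3 or more of 12 arrays were retained. Each gene took its kept probe set with 1 symbol and the highest mean, giving 10996 genes. limma 3.58.1 (R 4.3.3, package data.table, version 1.17.8) fitted 1 mean per group to all arrays (8 residual and 3.36 prior degrees of freedom, mean-variance trend), with 7 contrasts and Benjamini-Hochberg adjustment. The procedure was tested on simulated data.

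Members and gene lists were chosen with earlier results of these data known, and motifs were chosen after sequences had been seen. All members were named, with the 3 genes most correlated with each of the 5 members tested and, per list, up to 4 called genes with the largest changes. The rule was not kept in full: 1 such gene is not reported here, called genes of the macrophage, epithelium and club cell marker lists were not all named, and some further called genes were named after their values were seen. Leaving out arrays for the lists was chosen after seeing the data. Deviations of same-numbered arrays correlated at -0.16 to 0.53 over 18 pairs, and numbers were not taken as pairs. Between the SB groups all 3 pairs exceeded 0.1. The fit with the replicate number as a block, run on all arrays, changed no call of a member. Alternatives were another filter, floor, normalization, weights, probe set rule, array subset, a replicate block and leaving out arrays.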

Additional observations from a re-analysis of the deposited data

How the results depend on the processing

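The directions of the called changes held under every alternative run; the differences for Cxcl15 in wild type lungs for several genes under SB and for the Cxcr2 interaction, none of them called, changed sign in some. For VILI against SB in wild type, the number of the 6 genes called, 4, was 0 with no filter, 2 with values below the array median raised to it, 2 adjusted over all kept probe sets and 2 with no mean-variance trend, and 0 to 4 over the fits leaving out 1 array each. The settings with no filter and with all kept probe sets test more features, and the cause of the others was not tested. In knockout lungs the count of 4 was 1 with only the 6 arrays compared, which leaves fewer arrays to estimate the spread, and 4 to 4 leaving out 1 array each. For knockout against wild type after VILI the count of 0 was 1 with values raised to the array median (Cxcl1), 2 with array weights (Cxcl1 and Cxcl5, adjusted p = 0.0313 for Cxcl5) and 0 to 1 leaving out 1 array each. Averaged over treatments, the genotype count of 0 was 1 with values raised to the array median (Cxcl1, adjusted p = 0.0185).

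With the replicate number as a block, 4 of the 6 genes passed in wild type and 4 in knockout, and no call of a member changed, including the SB groups, where the block gave 0. Over all genes, the wild type VILI count was 290, against 442 with the block, 112 with no filter, 2204 with array weights, 475 with only the 6 arrays compared and 653 without both knockout arrays numbered 3. The knockout VILI count was 491, against 306 with no filter, 872 with array weights, 11 with only the 6 arrays compared and 110 without both knockout arrays numbered 3. Of the called genes of the 6 pathway lists in 1 genotype, only Il17ra in knockout passed in all 12 fits leaving out 1 array. In the average, 5 of 5 cytokine genes, 4 of 7 regulators, 4 of 7 signalling genes and 3 of 5 adhesion genes did. Of the other CXC genes 1 of 2 did (Cxcl10), and of the list with receptors and decoys 0 of 1 did (Ackr4). Leaving out 1 array gave 19 to 487 in wild type, 69 to 713 in knockout and 1128 to 2084 in the average, whose count was 1958.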

Other observations

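Cxcl13, which encodes the chemokine that draws B cells into follicles, read 8.09, 8.78 and 11.5 in knockout VILI lungs, against 6.22, 5.60 and 4.20 in wild type VILI lungs. It read 7.21, 7.48 and 10.5 in knockout SB lungs, against 7.23, 6.68 and 6.89 in wild type SB lungs. Its genotype difference after VILI was 4.12 ± 0.97 (limma, adjusted p = 0.271), which did not pass. Every knockout VILI array lay above every wild type VILI array, where 6.64% of the 10996 genes tested did. The highest arrays were the knockout arrays numbered 3, whose mean of 6 B cell markers was 10.2 (VILI) and 9.94 (SB). Without both arrays the genotype difference was 3.09 after VILI (adjusted p = 0.0712) and 0.42 under SB (adjusted p = 0.735). The part of B cells in the Cxcl13 level was not tested.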
